A study of Mus musculus with 9 samples.

Results

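These data are UBTF peaks that were called in every library from Myc-transgenic mouse pre-B cells and in neither library from wild type cells. The members started as peaks of premalignant replicate 1 on the 19 autosomes, outside the ribosomal DNA. A peak was kept when it overlapped, by at least 1 bp, a peak of premalignant replicate 2, of malignant replicate 1 and of malignant replicate 2, and no peak of wild type replicate 1 or 2. Of 72281 autosomal peaks of premalignant replicate 1, 2995 met this rule, which is a background of 4.14% of the peaks tested. Overlapping ones were merged into 2650 regions. The same list merged as a whole gave 58316 regions, and the 6 lists together held 1796909 peaks. The members were chosen by presence and absence in these lists, so both are given as a description with no test, and so are the ranks taken from the same lists. Single libraries decided the count and share of members, at 7247 regions and 12.3% of peaks without wild type replicate 2. Without premalignant replicate 1 they were 25550 and 16.1%, with premalignant replicate 2 as the anchor.

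The series profiled UBTF by chromatin immunoprecipitation sequencing in primary pre-B cells sorted from bone marrow. The labels give the gate as B220 high, IgM low and IgD low for every stage, while the study's methods give it for wild type and premalignant cells and describe the malignant cells as B220 positive and negative for IgM and IgD. All animals were C57BL/6. Wild type mice were 4 to 6 weeks old, premalignant mice of the same age were heterozygous for Eµ-Myc, and malignant mice carried the same transgene and were 10 to 20 weeks old with spontaneous lymphoma, so the malignant stage differs from both others in age too. Wild type and premalignant mice were female, and malignant mice were of both sexes. Eµ-Myc places Myc under the immunoglobulin heavy chain enhancer, which is active in B lineage cells. Each stage had 2 UBTF libraries, described in the methods as biological replicate experiments, and the labels do not tie a library to a number of animals. The 3 input samples were not analysed here.

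UBTF is an HMG-box protein that coats active ribosomal RNA genes and recruits RNA polymerase I, and it also binds outside the nucleolus. MYC raises transcription by RNA polymerase I and by the other nuclear polymerases, and it binds as a dimer with MAX to the E-box CACGTG. Long interspersed elements of the LINE-1 family are retrotransposons spread over mammalian genomes. A full LINE-1 copy has a promoter at its start, a short open reading frame for an RNA-binding protein and a long one for an endonuclease and reverse transcriptase.

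Most of the regions lay on copies of a single repeated element. The sequence shown here is that of 9 windows that reach 100 bp to each side of a summit, written 5′ to 3′ on the plus strand of mm9, chosen to show the kinds of sequence the regions held. The first 4 windows are the best ranked on the repeated element and outside annotated untranslated regions. Capitals mark bases inside a 24-mer that occurs at least 1000 times in mm9 on either strand.
Intergenic, nearest coding start Gm11161, chr1:27811987-27812187: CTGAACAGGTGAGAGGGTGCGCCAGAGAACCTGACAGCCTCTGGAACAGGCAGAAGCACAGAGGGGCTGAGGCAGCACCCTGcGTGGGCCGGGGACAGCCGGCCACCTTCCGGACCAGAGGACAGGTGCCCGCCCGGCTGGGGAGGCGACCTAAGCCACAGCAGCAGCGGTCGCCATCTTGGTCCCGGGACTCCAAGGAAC
Intron of Rab3b, chr4:108601263-108601463: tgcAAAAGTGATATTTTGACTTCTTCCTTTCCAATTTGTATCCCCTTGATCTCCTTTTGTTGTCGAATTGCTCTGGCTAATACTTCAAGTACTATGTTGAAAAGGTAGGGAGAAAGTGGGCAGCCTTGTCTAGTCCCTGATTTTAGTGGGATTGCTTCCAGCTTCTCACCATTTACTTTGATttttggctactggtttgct
Intron of Frem3, chr8:83151667-83151867: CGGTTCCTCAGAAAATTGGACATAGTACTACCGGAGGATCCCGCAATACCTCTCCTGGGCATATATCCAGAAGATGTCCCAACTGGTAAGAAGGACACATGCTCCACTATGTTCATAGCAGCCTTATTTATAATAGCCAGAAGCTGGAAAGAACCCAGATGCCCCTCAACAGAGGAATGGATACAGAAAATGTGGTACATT
Intergenic, nearest coding start Tbr1, chr2:61685521-61685721: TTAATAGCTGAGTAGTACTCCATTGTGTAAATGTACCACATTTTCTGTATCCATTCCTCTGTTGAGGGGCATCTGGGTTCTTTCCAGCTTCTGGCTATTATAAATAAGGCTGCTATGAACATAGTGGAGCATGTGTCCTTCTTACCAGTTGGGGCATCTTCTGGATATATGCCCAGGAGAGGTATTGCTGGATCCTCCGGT
The Frem3 and Tbr1 windows fell at almost the same place in the element, at positions 5182 and 5212 of its reference copy, in opposite orientations, with identities of 99% and 99.5% to that copy. The Gm11161 window fell at position 116 and the Rab3b window at position 3609.

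A further 2 windows are the best ranked that held a tandem repeat off the element. Capitals mark that repeat, a run of at least 40 bp with a unit of 1 to 6 bp.
Intron of Arsb, chr13:94569178-94569378: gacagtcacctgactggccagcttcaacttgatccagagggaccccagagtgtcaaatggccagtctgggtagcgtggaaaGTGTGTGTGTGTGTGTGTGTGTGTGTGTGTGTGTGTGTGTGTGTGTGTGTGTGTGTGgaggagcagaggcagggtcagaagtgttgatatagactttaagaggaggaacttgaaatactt
Intergenic, nearest coding start Mtpn, chr6:35900931-35901131: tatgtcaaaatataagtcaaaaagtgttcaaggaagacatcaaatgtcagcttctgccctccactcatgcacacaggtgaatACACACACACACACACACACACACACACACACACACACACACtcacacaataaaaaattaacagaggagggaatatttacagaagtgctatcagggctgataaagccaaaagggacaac
The next is the best ranked whose 24-mers had a median of 1 copy in mm9 and that held no such run, so nothing is in capitals.
Intergenic, nearest coding start Fam125b, chr2:33789498-33789698: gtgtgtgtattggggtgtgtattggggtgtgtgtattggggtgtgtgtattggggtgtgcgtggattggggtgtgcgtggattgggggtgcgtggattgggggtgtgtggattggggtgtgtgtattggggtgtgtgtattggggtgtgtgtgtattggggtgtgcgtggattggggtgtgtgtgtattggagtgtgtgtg
The last 2 are the best ranked promoter windows of the same kind, with CpG dinucleotides in capitals.
Coding exon of Eid2, chr7:29053069-29053269: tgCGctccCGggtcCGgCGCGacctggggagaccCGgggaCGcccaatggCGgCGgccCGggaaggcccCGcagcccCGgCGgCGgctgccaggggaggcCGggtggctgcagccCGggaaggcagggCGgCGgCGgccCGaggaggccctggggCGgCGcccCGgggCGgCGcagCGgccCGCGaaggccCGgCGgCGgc
Intron of Spag9, near its start, chr11:93857872-93858072: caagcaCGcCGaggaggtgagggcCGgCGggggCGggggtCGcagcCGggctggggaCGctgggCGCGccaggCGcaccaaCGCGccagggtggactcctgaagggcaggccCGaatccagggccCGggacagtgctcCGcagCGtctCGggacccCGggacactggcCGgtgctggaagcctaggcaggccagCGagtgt
The GC content of the Eid2 and Spag9 windows was 85.6% and 75.1%, against 44.3% in the Tbr1 window.

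The repeated element was found from the regions themselves. When the 2650 summit windows were aligned with each other, 2376 were joined in 1 chain of matching windows, the next chain held 28, and 166 windows matched no other. The copy of this sequence in mm9 taken as its reference lay on the plus strand at chr1:126092631-126098776. It is 6146 bp long and has open reading frames of 371 and 1281 codons in the same direction. This is the layout of a LINE-1 element, but it was required in advance. The reference was chosen only among copies whose first and second frames each reached a set minimum length. No annotation of repeats was used, so the family name rests on this layout only and was not tested. In mm9 there were 13465 matches of at least 5 kb to the element. Copies with both frames open numbered 2439, counted separately and not given as a share of those matches.

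In total 2234 of the 2650 regions, 84.3%, had their summit on this element. It held 19.1% of the summits of all merged premalignant replicate 1 regions and 19.5% of those of the 23319 regions found in all 6 lists. Among 4279 regions of premalignant replicate 1 found in no wild type list but missing from at least 1 other transgenic list, the share was 9.44%. A grid of positions every 10 kb along the autosomes, used here in place of shuffled positions, had 8.40% of its points on the element. Regions on the element matched it with a median identity of 94.98% and lay in both orientations, 1130 on the plus and 1104 on the minus strand.

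**Figure D1:**
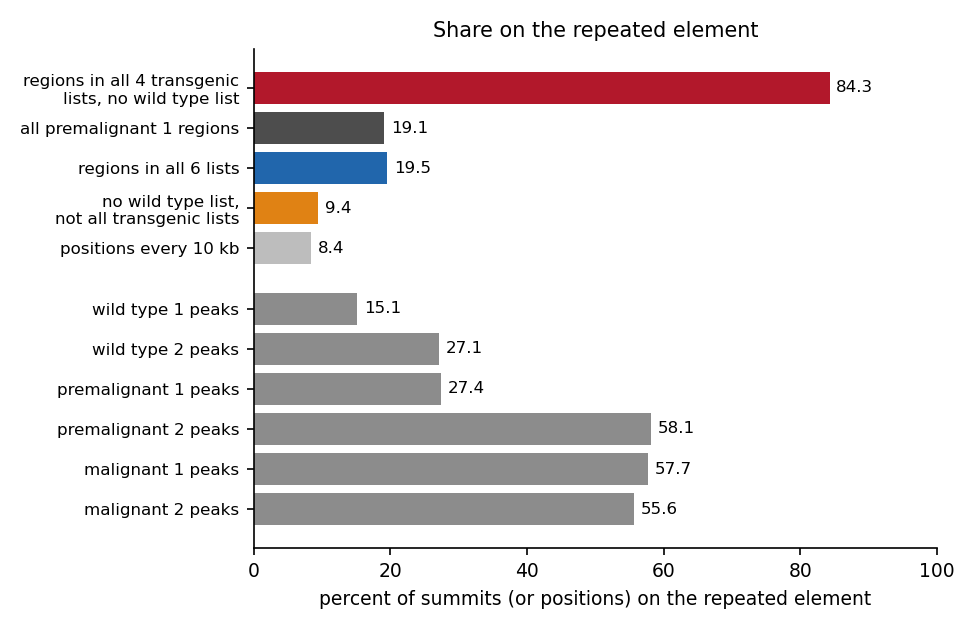
Bars give the percent of summits on the repeated element, for the regions and 4 comparison sets above, and for every 20th peak of each of the 6 lists below. The regions stand at 84.3%, and the lists fall into 3 at 15.1% to 27.4% and 3 at 55.6% to 58.1%.

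The lists themselves differed in how much of the element they covered. Every 20th peak of each list, taken without merging, lay on the element in 15.1% and 27.1% of cases in wild type replicates 1 and 2, in 27.4% and 58.1% in premalignant replicates 1 and 2, and in 57.7% and 55.6% in malignant replicates 1 and 2. Premalignant replicate 1 was thus close to wild type replicate 2, and premalignant replicate 2 was close to the malignant libraries. The same split was seen in the number of peaks, with 78113 to 184609 in the first 3 lists and 279068 to 575674 in the other 3, which are called the short and the long lists here. It was seen in the narrowest peak too, which was 240, 250 and 260 bp in wild type replicates 1 and 2 and premalignant replicate 1, and 680, 800 and 670 bp in premalignant replicate 2 and malignant replicates 1 and 2. The median peak was 2000 to 2006 bp wide in the short lists and 2184 to 2672 bp in the long ones, but overlapping peaks merged gave the reverse, 1973 to 1983 bp against 1417 to 1751 bp, so neither kind was wider throughout. No wild type list was of the long kind, so for the 3 long lists the kind of list and the genotype cannot be told apart.

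Grid positions on the element show how nearly the long lists covered it. Of 20112 such positions, peaks of premalignant replicate 2 covered 90.4%, those of malignant replicate 1 58.6% and those of malignant replicate 2 86.0%. Wild type replicates 1 and 2 covered 13.9% and 28.8% of them, and premalignant replicate 1 covered 18%. Off the element the long lists covered 12.8%, 6.44% and 13.4% of positions, in that order, and wild type replicates 1 and 2 and premalignant replicate 1 covered 6.18%, 8.50% and 3.61%. Positions in all 4 transgenic lists and no wild type list made up 4.25% of the grid on the element and 0.0661% off it.

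The parts of the rule contributed unequally on and off the element. Of the 11152 merged premalignant replicate 1 regions on it, 99.6% overlapped premalignant replicate 2, 95.3% malignant replicate 1 and 99.7% malignant replicate 2, while 46.8% and 71.4% overlapped wild type replicates 1 and 2. Off the element, regions with a tandem repeat showed the opposite order, with 82.0% and 89.4% in the wild type lists and 61.0%, 59.8% and 71.0% in the other transgenic lists. Taken as a whole, 19.04% of the regions on the element were in all 3 other transgenic lists and no wild type list, against 0.484% of 30974 with a tandem repeat and 1.62% of the other 16190. Among the short lists alone, 22.7% of the premalignant replicate 1 regions on the element were in neither wild type list, against 6.88% and 13.3% of those off it with and without a tandem repeat. These shares rest on the lists that the rule used and are given as a description.

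Along the element, few of the regions lay at its start. Of the 2234, 27, or 1.21%, had their summit before the first reading frame, where 36.5% of the element summits of regions in all 6 lists fell, nearly all of them in the first 250 bp. The first reading frame, at positions 432 to 1547, held 18.1% of the regions' summits and 17.3% of those in all 6 lists. The second frame, at positions 1588 to 5433, held 21.3% of the regions in its first part and 40.7% in its second part of equal length, against 20.2% and 20.1% in all 6 lists. After the second frame the shares were 18.7% and 5.93%. Grid positions on the element fell at 2.09% before the first frame, 12.4% in it, 23.9% and 38.4% in the 2 parts of the second frame and 23.2% after it, which is nearer to the regions than to the regions in all 6 lists at the start and in the second frame.

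**Figure D2:**
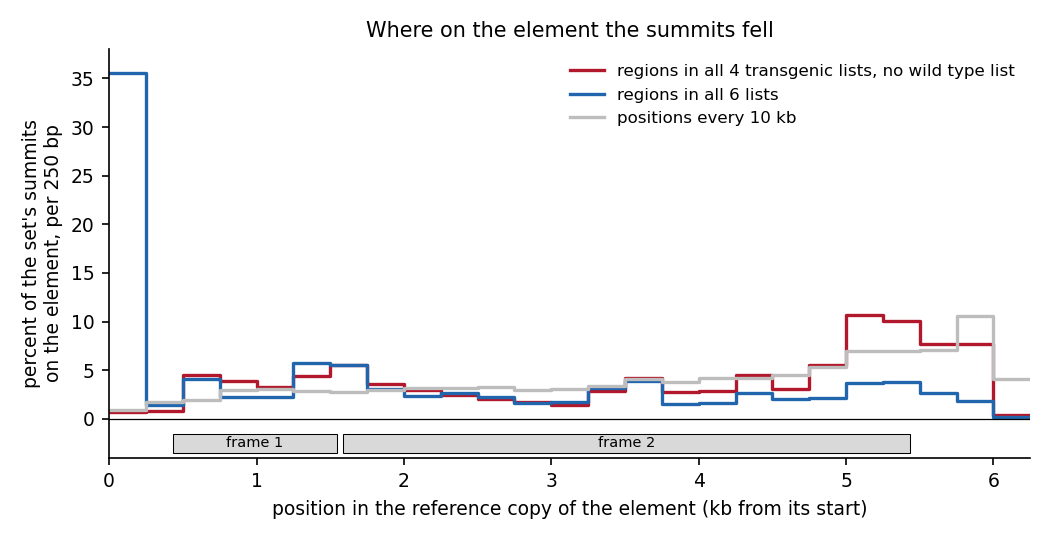
The horizontal axis is the position in the 6.146 kb reference copy, with its 2 open reading frames drawn below, and the vertical axis is the percent of each set's element summits per 250 bp. The regions rise toward the end of the second frame, to 10.7% between 5000 and 5250 bp, while regions in all 6 lists pile up in the first 250 bp at 35.6%.

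How often the sequence occurs in the genome sets how reads can be placed on it. The 24-mers of the summit windows had a median of 3891 copies in mm9 over all regions, 4975 on the element and 17.2 off it. The median over all regions was 1060 without premalignant replicate 1 and 7901 with all lists shortened to the shortest. The median was 13 for all premalignant replicate 1 regions, 210 for regions in all 6 lists and 1 for grid positions. A median of at least 10 copies was found in 92.5% of the regions and 51.2% of all premalignant replicate 1 regions. The reads were 50 bases long in pairs, and of the 50-mers in a window a median of 8.55% occurred once in mm9, against 69.1% for all premalignant replicate 1 regions. In 1083 regions, 40.9%, no 50-mer was found once. The part of read placement in the presence of these regions was not tested, since the lists hold no reads. The study's methods name bowtie2 at its default options, under which a read pair that matches several places equally well is reported at one of them.

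Simple repeats were less common here than in the list that anchored the regions. Of the 2650, 150 regions, 5.66%, held a tandem repeat of at least 40 bp, against 53.1% of all premalignant replicate 1 regions, 47.3% of regions in all 6 lists and 2.23% of grid positions. The 5.66% depended on the rule, at 0.585% with all lists shortened to the shortest and 14.1% without malignant replicate 1. The lists differed in their share of tandem repeats too, with 40.4% to 53.9% of every 20th peak in the short lists and 10.2% to 13.6% in the long ones. All 150 lay off the element, where they made up 36.1% of the 416 regions. The commonest units, read on either strand, were AC in 41 regions, AG in 32 and AAG in 20. Among all premalignant replicate 1 regions AG came first, with 18456, and AC second, with 8460. The median GC content at the summits was 40.3%, against 46.8% in all premalignant replicate 1 regions, 48.8% in all 6 lists and 41.8% on the grid. The E-box CACGTG, which reads the same on both strands, was present in 41 windows, 1.55%, against 1.85% of all premalignant replicate 1 regions and 2.04% of grid positions.

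As a percent of each list, the regions stood low in the list that anchored them and higher in the others. Each peak was ranked within its list by the caller's score, and the rank is given as a percent of the list, with the best peak near 0. In premalignant replicate 1 the best region stood at 5.94%, the median at 73.4% and the last at 99.9%. In premalignant replicate 2 the best peak overlapping a region had a median rank of 6.91%, in malignant replicate 1 of 25.3% and in malignant replicate 2 of 8.04%. Only 3 regions were in the best 10% of premalignant replicate 1, while 62.5%, 21.0% and 56.3% were in the best 10% of the other lists in that order. These lists are longer, at 575674, 279068 and 563265 peaks against 78113, so their best 10% holds more peaks. Scores are not scaled between libraries, so only ranks within a list are set side by side, and the best of several overlapping peaks was taken in the longer lists. As rank numbers the medians were 57360, 39787.5, 70670 and 45259.5 in premalignant replicates 1 and 2 and malignant replicates 1 and 2. By number the regions thus stood lower in malignant replicate 1 than in the anchor. Ranks of other premalignant replicate 1 regions in these lists are not given, so the difference has no comparison.

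**Figure D3:**
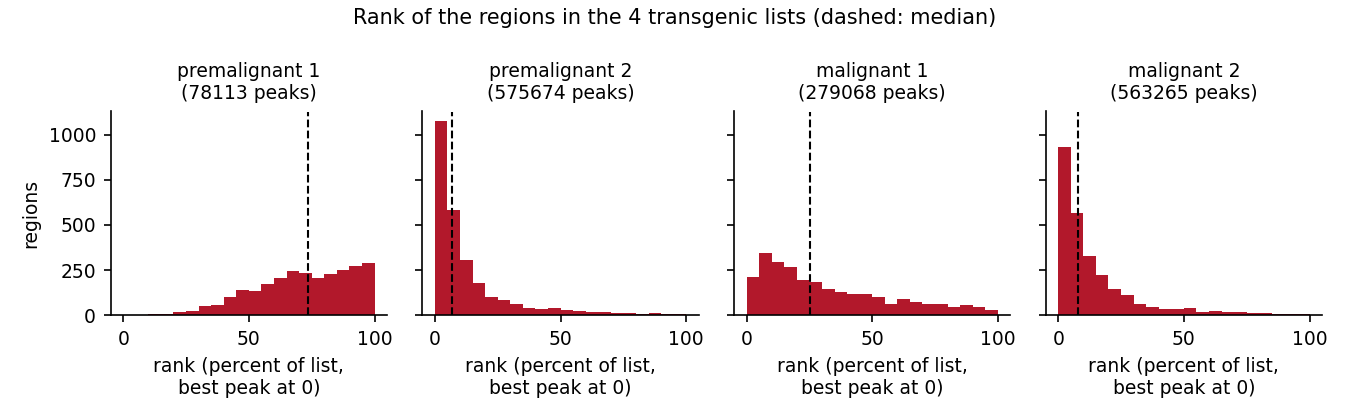
Histograms of the rank of the 2650 regions in each of the 4 transgenic lists, as a percent of the list with the best peak at 0, and a dashed line at the median. Ranks rise toward the end of the list in premalignant replicate 1, with a median of 73.4%, and crowd at its start in premalignant replicate 2 and malignant replicate 2, with medians of 6.91% and 8.04%.

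Ranks in premalignant replicate 1 had little relation to those in the other lists. Across the 2650 regions the Spearman correlation of its ranks with those of premalignant replicate 2, malignant replicate 1 and malignant replicate 2 was 0.012, 0.047 and 0.022. Among the 3 long lists it was 0.45 for premalignant replicate 2 with malignant replicate 1, 0.52 with malignant replicate 2 and 0.40 between the malignant libraries. The points share sequence copies and are not independent, so no p-value is given. Regions on the element ranked at medians of 74.6%, 5.56%, 21.7% and 6.70% in the 4 lists, and the 150 with a tandem repeat at 60.9%, 39.2%, 60.6% and 30.6%.

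The share of peaks that met the rule grew toward the end of the premalignant replicate 1 list. It was 0.041% in the best 10% of the list, which held 3 of the 2995 peaks, 3.50% in the fifth step of 10% and 9.74% in the last. Absence from both wild type lists rose in the same way, from 0.162% to 19.7%, with 10.1% over all autosomal peaks. Presence in all 3 other transgenic lists did not, at 85.3% in the first step, 54.5% in the fifth and 64.2% in the last, with 61.1% over all. Of the 7315 peaks in no wild type list, 40.9% were in all 3 other transgenic lists, against 63.3% of the 64966 peaks in at least 1 wild type list. Being absent from wild type therefore did not go with being more often present in the other transgenic lists.

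**Figure D4:**
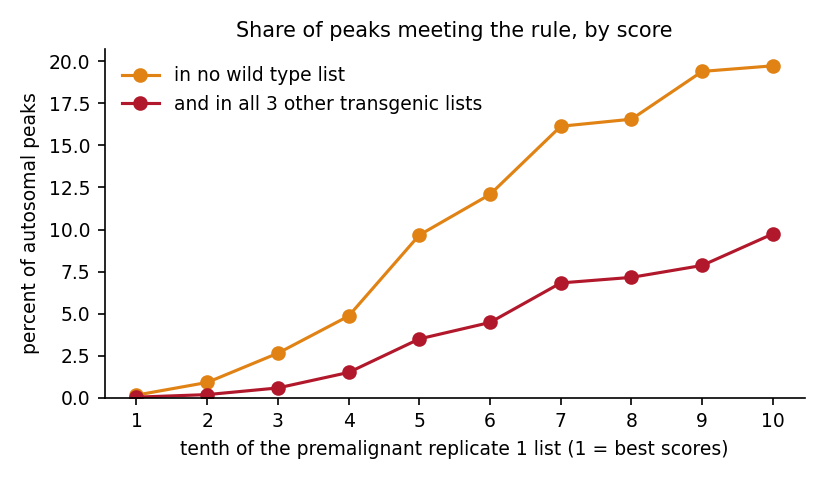
Autosomal peaks of premalignant replicate 1 in steps of 10% of the list, step 1 having the best scores, against the percent of them in no wild type list (orange) and in all 3 other transgenic lists as well (red). Both lines climb with step, to 19.7% and 9.74% in the last.

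The distance to the nearest wild type peak had a median of 3530 bp, and 591 regions, 22.3%, had one within 1 kb. Just inside the rule were 99 peaks at most 100 bp from a wild type peak, with a median gap of 60 bp and a median rank of 71.6% in premalignant replicate 1. Just outside it were 69 peaks found in all transgenic lists of which at most 100 bp was covered by wild type peaks, with a median of 59 bp covered and a median rank of 75.4%. These peaks differed little in rank. Far from wild type peaks were 537 regions, 20.3%, with a gap of over 10 kb. The farthest was on the element at chr2:115083521-115085242, 73.9 kb from a peak of wild type replicate 1 and 87.5 kb from one of replicate 2, and its ranks were 79.7%, 0.944%, 1.21% and 3.52% in premalignant replicates 1 and 2 and malignant replicates 1 and 2, the order in which sets of 4 ranks are given from here on. Its rank was good in the 3 long lists and poor in premalignant replicate 1. The next farthest were also on the element, 67.2 kb from a wild type peak at chr5:33001637-33003618 and 64.6 kb at chr16:88956584-88958735. They stood at 75.2% and 92.1% in premalignant replicate 1, at 2.92% and 9.22% in premalignant replicate 2, at 22.8% and 18.99% in malignant replicate 1 and at 11.4% and 12.5% in malignant replicate 2.

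The 2650 regions covered 5.47 Mb, 0.221% of the autosomes, at a median width of 2000 bp. Of these regions, 2356 were a single peak and the rest held 2 to 5. The region with 5 peaks lay on the element at chr1:181565851-181570667, between genes and 29.4 kb from the start of Sccpdh, and stood at 53.9%, 9.31%, 4.10% and 9.74%. The next by number of peaks both held 4. One lay in an intron of Fam19a1, which encodes a secreted brain protein, at 31.5%, 0.561%, 8.77% and 2.00%, and the other 11.6 kb from the start of Ptp4a1, a phosphatase, at 44.7%, 1.39%, 4.82% and 3.31%. Summits of all 3 other lists were within 200 bp of the summit of premalignant replicate 1 in 889 regions, 33.5%. In 988 regions this held for 2 of the 3 lists, in 564 for 1, and in 209 for none.

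The 10 regions with the best mean rank over the 4 lists repeat this picture, with 8 on the element, 7 between genes and 3 in introns. The first, at chr1:27811098-27814870, lay at the start of the element and is the first window shown. Its ranks were 29.0% in premalignant replicate 1, 0.542% in premalignant replicate 2, 3.48% in malignant replicate 1 and 1.29% in malignant replicate 2, and the nearest wild type peak was 358 bp away in replicate 2 and 8862 bp away in replicate 1. The region in an intron of Rab3b, a small GTPase of vesicle release, stood at 27.5%, 0.257%, 6.57% and 1.98%. The region in an intron of Frem3, an extracellular matrix protein, stood at 22.2%, 1.92%, 10.5% and 1.88%, with a peak of wild type replicate 2 only 160 bp away. The region with 2 peaks 41.3 kb from Tbr1, a brain transcription factor, stood at 28.01%, 1.06%, 4.94% and 3.07%, and peaks of wild type replicates 1 and 2 lay 701 bp and 627 bp away. The region farther from genes at chr2:50619095-50621102, 384 kb from the start of Rnd3, stood at 32.4%, 3.12%, 0.949% and 1.14%. In each of these regions premalignant replicate 1 gave the worst rank of the 4 lists as a percent of the list. By rank number this held for all but the Frem3 region. That region stood at 17329 in premalignant replicate 1 and 29345 in malignant replicate 1.

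Of the 10 best, 2 were off the element. The region in an intron of Egfem1, at chr3:29218900-29221383, stood at 26.3%, 4.64%, 2.37% and 2.07%. Its 24-mers still had a median of 2413 copies, so it lay on repeated sequence. Whether that is a diverged part of the same element was not tested. The region at chr2:33788556-33790590, 46.1 kb from the start of Fam125b, was the highest of the 10 in premalignant replicate 1, at 14.9%, and stood at 0.179% in premalignant replicate 2, 25.9% in malignant replicate 1 and 0.103% in malignant replicate 2. Its sequence, shown in the seventh window, repeats a longer unit with small changes. Its 24-mers had a median of 1 copy and all its 50-mers occurred once, and the nearest wild type peak was 6577 bp away.

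Placement relative to genes followed the element. By GENCODE M1, 2050 regions, 77.4%, had their summit between genes, 543, 20.5%, in an intron, 43, 1.62%, in a promoter, within 1 kb of a coding transcript start, and 14, 0.528%, in an exon. Of all premalignant replicate 1 regions 62.0% were between genes and 29.7% in introns, of regions in all 6 lists 64.4% and 26.9%, and of grid positions 57.5% and 37.3%. Off the element 267 of the 416 regions, 64.2%, were between genes. Promoters held 7.26% of all premalignant replicate 1 regions, 8.18% of regions in all 6 lists and 2.36% of grid positions. The median distance to a coding start was 90.4 kb, against 59.99 kb for all premalignant replicate 1 regions and 54.3 kb on the grid. Off the element, promoters made up 40 of the 416 regions, 9.62%.

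The share of promoters depended on how the rule was applied. It was 1.01% with 50% of the peak covered, 0.202% with all lists shortened to the shortest and 2.47% with no wild type peak within 5 kb, and without 1 library it reached 2.62%, when wild type replicate 2 was left out. For 37 of the 43 promoter regions the 24-mers of the summit window had a median of under 2 copies in mm9, and the median GC content of all 43 was 74.1%. None held CACGTG. The median ranks were 67.0%, 30.1%, 40.9% and 12.6% in premalignant replicates 1 and 2 and malignant replicates 1 and 2, and the median gap to a wild type peak was 6956 bp. The first by mean rank, at Gm17333, was on the element. The next, at chr7:29052100-29054208, held the start of Eid2, which encodes an inhibitor of differentiation, and stood at 24.97%, 3.16%, 43.0% and 12.6%, with wild type peaks 57974 bp and 9185 bp away in replicates 1 and 2. The promoter region of Spag9, a scaffold of JNK signalling, stood at 42.3%, 9.74%, 67.7% and 1.26%. The other 2 of the best 5 were in Abca3, 777 bp from the start of Gm10506 and on a run of A, and at Arid4b, a subunit of a histone deacetylase complex, on the element.

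Other promoter regions, picked after their values were seen because of the genes' roles in growth and RNA, ranked variously. Rps15a, a protein of the small ribosomal subunit, stood at 67.0%, 64.6%, 25.9% and 56.9%. Hnrnpr, an RNA-binding protein, stood at 28.1%, 48.7%, 38.2% and 20.7%. Both had a median of 1 copy per 24-mer, and neither was in the best 10% of any list.

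Counted over gene bodies with 5 kb before the start, 556 of 21418 coding genes on the autosomes, 2.60%, held a region, and 381 of them held regions on the element only. Any premalignant replicate 1 peak was held by 10570 genes, 49.4%. None of the 14 genes found of the RNA polymerase I machinery held a region, none of the 13 of the MYC network, none of 19 for nucleolar ribosome assembly, none of 20 growth and replication genes that MYC is known to drive, none of 24 genes of pre-B cell identity and none of 14 of the p53 pathway and apoptosis. In the same lists 9, 8, 9, 6, 17 and 7 genes held a premalignant replicate 1 peak of some kind. Among 15 markers of other bone marrow cells only Itgam, an integrin of myeloid cells, held a region. It lay on the element in an intron, 22.1 kb from the start, and stood at 67.0%, 6.99%, 37.99% and 11.4%. Read against the 2.60% of all coding genes, these counts show nothing particular to the lists, which were chosen with earlier results known.

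Of the 556 coding genes with a region, 402 were in the longest of 4 length groups. Whether other peaks rise with gene length in the same way was not tested. Coding genes split by length into 4 groups of equal number held a region in 0.541%, 0.859%, 1.48% and 7.51% of cases from the shortest to the longest. A single region was found in 491 genes, and 9 genes held 4, which is the most. These 9 ranged from Abca14, at 121 kb, to Macrod2, at 1998 kb, and included Magi2, a scaffold of synapses, and Ptprn2, a protein of secretory vesicles. They are named after their values were seen.

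The loci that make up the transgene held no region. No region overlapped Myc and 10 kb on each side, at chr15:61806946-61831929. Wild type replicates 1 and 2 listed 3 and 8 peaks there, premalignant replicates 7 and 0, and malignant replicates 8 and 6. The heavy chain locus from the J segments to Ighm, at chr12:114659078-114668044, had 3 peaks in each wild type list and in premalignant replicate 1, 2 in malignant replicate 1, 1 in malignant replicate 2 and none in premalignant replicate 2. Premalignant replicate 2, the longest list, thus had none at either locus, so no peak there could meet the rule.

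Regions were found on every autosome, from 0.293 per Mb on chromosome 19 to 1.70 per Mb on chromosome 13. Set against the number of merged premalignant replicate 1 regions they came to 1.65% on chromosome 19, 2.18% on chromosome 11, 6.48% on chromosome 7 and 6.93% on chromosome 13. Across the 19 autosomes, regions per Mb had a Pearson correlation of 0.67 and a Spearman correlation of 0.63 with the share of grid positions on the element, and of -0.46 and -0.40 with GC content. Both are descriptions over chromosomes that also share gene density and base composition. Within the element the number of members set against that of premalignant replicate 1 regions still ran from 9.09% on chromosome 19 to 27.7% on chromosome 13. Members were merged among themselves, so these percentages are not the same measure as the share of merged regions that met the rule. Regions were seldom close together, with a median of 209 kb to the next and 166, 6.26%, within 10 kb of another.

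**Figure D5:**
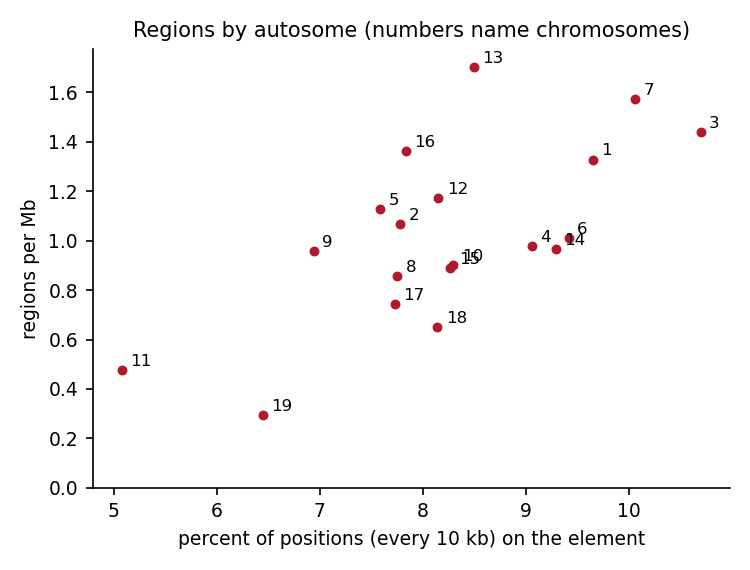
Each point is 1 autosome, named by its number, with the percent of grid positions on the element on the horizontal axis and regions per Mb on the vertical axis. Chromosomes 11 and 19 lie lowest, at 0.476 and 0.293 regions per Mb, and chromosomes 13 and 7 highest, at 1.70 and 1.57.

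The share on the element was higher in the regions than in either comparison set at each level of the premalignant replicate 1 list. In its 4 parts of 25%, from the best to the worst, 24.2%, 76.1%, 84.9% and 88.0% of the regions were on the element, with 33 regions in the first part and 1245 in the last. For all premalignant replicate 1 regions the shares were 4.77%, 15.8%, 28.4% and 33.4%, and for regions in all 6 lists 6.54%, 24.1%, 38.3% and 45.1%. The share of tandem repeats fell over the same parts, from 66.8% to 39.5% in all premalignant replicate 1 regions and from 27.3% to 3.86% in the regions studied here.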

How the data were processed

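UBTF ChIP-seq peaks of 6 libraries were analysed. Per the study's methods, the authors mapped 50-bp paired reads with bowtie2 to mm9 joined to 1 copy of the rDNA repeat, removed duplicates with Picard (version 1.110 per the submitters' processing notes) and called peaks for each library alone with SPP. The deposited lists hold a score for each peak, in the caller's own units and not scaled between libraries. The deposited q-value column holds a linear false discovery rate, at most 0.0496 in any list, and the p-value column is a constant that was not used. The lists give no read counts, so the depth of each library is unknown. Replicates 1 and 2 held 116180 and 184609 peaks for wild type, 78113 and 575674 for premalignant, and 279068 and 563265 for malignant cells. They were used before any test of reproducibility between replicates.

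The members and gene lists were chosen with earlier results of these data known. Overlaps were found in Python 3.11.15 with numpy 2.4.6 and pandas 2.3.3, with interval steps tested on simulated data. Annotation was GENCODE M1 on mm9 (NCBIM37). Classes were read at the summit in the order promoter, exon, intron, intergenic. Sequence was read 100 bp to each side of the summit with pysam 0.24.0, and 24-mers and 50-mers were counted on both strands of mm9 with numba 0.67.0. The element was found with BLAST 2.17.0, and a summit was placed on it by a match of at least 100 bp at 80% identity. No test was run, because the rule used every list. Regions named are the 10 with the best mean rank over the 4 transgenic lists, the 5 best promoters, those with the most peaks or farthest from wild type, any at the Myc or heavy chain loci, and the genes of each list that hold a region. The alternatives covered overlap, threshold, list length, gap to wild type, anchor list, chromosome X, each library left out, and the window and class definitions.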

Additional observations from a re-analysis of the deposited data

How the results depend on the processing

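No paired analysis was possible because the results come from no test. Shares were called moved when they left the 95% exact interval of the reported value, which covers counting error only, counts when they changed by over 1.5 times, and medians when they moved by over 1 SD of the 4 transgenic lists. For the median rank this SD was 31.2 percentage points, so its staying within the limit shows little. The share on the element, added after the data were seen, ranged from 71.4% to 96.3% over the alternatives for which it was read, against 84.3% as reported. With at least 50% of the peak covered, 3.61% of peaks met the rule, 89.8% of the regions were on the element, 3.37% held a tandem repeat and 24-mers had a median of 4363 copies. With summits within 200 bp, 959 regions were left, 1.37% of peaks met the rule, 88.1% were on the element and the median was 5000.5 copies. With all lists shortened to the shortest, there were 4960 regions, 9.63% of peaks, 96.3% on the element, 0.585% with a tandem repeat and a median of 7901 copies. With no wild type peak within 1 kb, 3.22% of peaks met the rule, and within 5 kb there were 1092 regions, 1.68% of peaks, 74.4% of them intergenic and a median of 3435 copies. From malignant replicate 1 as anchor, 2.49% of its peaks met the rule, their median rank in that list was 34.8%, 3.06% held a tandem repeat and the median was 3180 copies. With chromosome X the share was 4.41%. A promoter window of 5 kb left 75.02% intergenic, and windows of 250 bp to each side gave a median of 3027 copies. The share of promoters, 1.62% as reported, ran from 0.202% to 2.62% over the rules and left-out libraries, and was 5.17% with the promoter window of 5 kb. Read at the summits of the other lists, an alternative added after the data were seen, tandem repeats made up 3.02% in premalignant replicate 2, 3.06% in malignant replicate 1 and 3.43% in malignant replicate 2, the element 87.4% in premalignant replicate 2 and 87.5% in malignant replicate 2, and the median was 4603 copies in malignant replicate 2.

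Leaving out each library in turn gave 2733 to 25550 regions, 4.26% to 16.1% of peaks meeting the rule, median ranks of 23.0% to 73.3%, 73.1% to 76.8% intergenic, 71.4% to 81.9% on the element, 4.45% to 14.1% with a tandem repeat and medians of 1060 to 5486 copies. Single libraries decided the count: without wild type replicate 2 it was 7247, and without premalignant replicate 1, where premalignant replicate 2 became the anchor, 25550. Without malignant replicate 1, 14.1% held a tandem repeat and 71.4% were on the element. Of 115 values of these results, 57 stayed within the limits. The cause of the changes was not tested. The depth of the libraries is unknown, and it limits what absence from the 2 wild type lists can show.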
